A study of Mus musculus with 2 samples.

Results

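Type I interferon response genes were followed across the leukocytes of mouse blood, in 1 single-cell library from WT mice and 1 from APP/PS1 mice. The set was a list of 44 genes taken as given, with no measured value in the rule. It was chosen with earlier results of these data known. Of the 32285 genes in the count tables, 42 were members of it. Mx1 and Mx2 were on the list but not among the genes counted and were not analysed here. Neutrophils were enriched from the blood of female mice at 7 months of age with a negative selection kit, and 3 mice of a genotype were pooled into 1 library on the 10x Genomics v3 chemistry. WT mice were C57BL/6J. APP/PS1 mice carry transgenes for the amyloid precursor protein and presenilin 1 and are used as a model of amyloid deposition in the brain. The labels name no treatment for either group. With 1 library per genotype and several animals inside each, no difference between animals can be measured, so no test was made. Genotype, library and handling cannot be told apart. All intervals are exact 95% intervals that cover counting error only.

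Type I interferons (the alpha family and interferon beta) are cytokines that nearly all nucleated cells can sense. They bind the receptor made of Ifnar1 and Ifnar2, whose kinases Jak1 and Tyk2 activate transcription factors, Stat2 among them. Stat2 works in a complex with Irf9, which binds a short DNA element, the interferon-stimulated response element, beside the genes it induces. The products block viral RNA and protein synthesis, sense nucleic acids, attack pathogen vacuoles or recruit other leukocytes. Interferon gamma, made by NK and T cells, acts through its own receptor and induces an overlapping set, the GTPase genes of the GBP and IRG families and Cxcl10 among them, so the list does not separate the cytokines. In blood, neutrophils with and without a high level of these genes are known to occur side by side.

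The WT library held 17123 cells and 92458623 unique molecular identifiers (UMIs), and the APP/PS1 library 17645 cells and 84870864 UMIs. After the filters 14564 and 15208 cells were kept, and 63 barcodes occurred in both libraries among them. Clustering, with the members and their pathway genes left out of the features, gave 6321 WT and 7026 APP/PS1 neutrophils, 5368 and 3607 monocytes, and 1156 and 1613 lymphocytes (T, NK and B cells). UMIs were summed over the cells of a type and divided by all UMIs of that type (CPM, UMIs of a gene for every 1e+06 UMIs of the type). The labels call the libraries neutrophils, but the cells named neutrophils here were 43.4% of kept WT cells and 46.2% of kept APP/PS1 cells. The neutrophils carried their own markers at 189766 and 162622 CPM in sum, and T cell markers at 5.97 and 8.61 CPM. Another 1253 WT cells (8.60% of kept cells) and 2544 APP/PS1 cells (16.7%) with neutrophil markers were led by platelet genes. They were kept apart as cluster 3, so the share of all cells with neutrophil markers is larger than that of the named neutrophils. One UMI marks 1 captured 3' end whatever the length of the transcript, so CPM values of different genes were set side by side without a length correction. Whether different genes are captured equally well was not tested.

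Many members lie in clusters of related genes (GENCODE M21, GRCm38, the sequence of mm10). The 5 IFIT genes share 99.3 kb of chromosome 19, chr19:34550694-34650009, in the order Ifit2, Ifit3, Ifit1bl1, Ifit3b and Ifit1. The 4 GBP genes of the list share 144 kb of chromosome 3, chr3:142493978-142638008. Rsad2 (chr12:26442746-26456452) and Cmpk2 (chr12:26469204-26479837) are neighbours on chromosome 12. Isg15 lies at chr4:156199424-156200818, Cxcl10 at chr5:92346638-92348889, Irf7 at chr7:141262706-141266481, Bst2 at chr8:71534255-71537456 and Ifi27l2a at chr12:103442167-103443680. Of 44 members read, 3 shared windows of 90 bases in the last 500 bases of their longest transcript with another gene: Oas1a with Oas1g in 42.3% of windows, Phf11b with Phf11c and Phf11d in 22.6%, and Ifit3 with Ifit3b in 6.57%. Counts of these 3 genes are therefore less certain than the rest.

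The promoters of 6 members are shown because these genes were the 3 most and the 3 least concentrated in the same neutrophils, as measured further on, among members with a promoter entry. Each run is 300 bases of RefSeq sequence (GRCm38.p6) from 250 bases before the start site, 5′ to 3′ on the gene's strand. Capitals mark the core of the response element, GAAANNGAAA, or its reverse TTTCNNTTTC. The windows are Ifit2 on chr19:34550444-34550743 (plus strand), Ifit1bl1 on chr19:34601919-34602218 (minus strand), Ifit3 on chr19:34583279-34583578 (plus strand), Trim30a on chr7:104465144-104465443 (minus strand), Samd9l on chr6:3399522-3399821 (minus strand) and Irf9 on chr14:55603735-55604034 (plus strand).
Ifit2: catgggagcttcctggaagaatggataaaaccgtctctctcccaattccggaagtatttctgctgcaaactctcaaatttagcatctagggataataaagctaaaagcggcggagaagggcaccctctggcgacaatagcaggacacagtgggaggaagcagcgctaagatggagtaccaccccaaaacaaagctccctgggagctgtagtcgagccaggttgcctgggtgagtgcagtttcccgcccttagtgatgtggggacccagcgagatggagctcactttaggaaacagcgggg
Ifit1bl1: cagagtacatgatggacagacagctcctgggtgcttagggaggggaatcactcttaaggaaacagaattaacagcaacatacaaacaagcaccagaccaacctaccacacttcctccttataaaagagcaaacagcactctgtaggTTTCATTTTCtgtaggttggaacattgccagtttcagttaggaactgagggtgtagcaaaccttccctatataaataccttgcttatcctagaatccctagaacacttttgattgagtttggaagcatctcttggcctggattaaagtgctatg
Ifit3: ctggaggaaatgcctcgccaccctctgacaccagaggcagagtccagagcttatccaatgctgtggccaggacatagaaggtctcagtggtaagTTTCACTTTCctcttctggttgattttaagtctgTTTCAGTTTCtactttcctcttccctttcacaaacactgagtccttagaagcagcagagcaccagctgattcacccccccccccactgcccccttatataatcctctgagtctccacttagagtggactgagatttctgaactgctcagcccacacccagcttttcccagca
Trim30a: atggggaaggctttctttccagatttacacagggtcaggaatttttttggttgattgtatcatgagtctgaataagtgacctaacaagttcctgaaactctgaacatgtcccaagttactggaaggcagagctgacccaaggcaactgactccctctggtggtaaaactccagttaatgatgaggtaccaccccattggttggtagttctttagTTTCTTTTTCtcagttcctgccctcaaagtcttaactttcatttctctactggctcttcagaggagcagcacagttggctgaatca
Samd9l: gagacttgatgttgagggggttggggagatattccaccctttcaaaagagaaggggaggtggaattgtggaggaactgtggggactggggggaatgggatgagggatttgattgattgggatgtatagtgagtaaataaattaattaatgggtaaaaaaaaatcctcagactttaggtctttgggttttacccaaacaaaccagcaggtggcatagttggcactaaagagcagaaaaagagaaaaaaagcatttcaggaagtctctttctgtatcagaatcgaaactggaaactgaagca
Irf9: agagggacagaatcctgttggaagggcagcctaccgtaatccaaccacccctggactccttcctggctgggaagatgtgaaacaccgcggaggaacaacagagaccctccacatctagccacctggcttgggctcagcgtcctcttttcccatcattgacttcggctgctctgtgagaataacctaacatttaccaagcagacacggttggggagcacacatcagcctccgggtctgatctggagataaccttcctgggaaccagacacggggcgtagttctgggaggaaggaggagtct
The core stood 122 and 156 bases before the start site of Ifit3 (first base), 104 before that of Ifit1bl1 and 36 before that of Trim30a, and its letters were not in the other 3 windows. It was found in 21 of 33 members with an entry (63.6%) and in 3.49% of 27025 promoters of the same length. The palindrome TTCNNNGAA, the core of the gamma-activated element, was in 6 of them (18.2%) and in 8.47% of all promoters. The Ifit2 window holds the palindrome and not the core. Both strands were searched for each motif, and matches of the motifs can overlap only at their ends. A match of letters is a description of the sequence and shows no binding.

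In neutrophils the members summed to 6506 CPM in WT against 7886 in APP/PS1, and 1 gene, Ifi27l2a, made up the largest share with 2596 CPM in WT against 3044 in APP/PS1. Ifi27l2a encodes a small interferon-induced membrane protein. By the mean of both libraries Rsad2 came next (viperin, an enzyme that makes a chain-terminating nucleotide), with 431 CPM in WT against 593 in APP/PS1, and then Isg15 (a ubiquitin-like protein attached to other proteins) with 381 CPM in WT against 533 in APP/PS1. Rtp4, Trim30a and Oasl2 stood near Isg15, and in WT all 3 were above it, between 386 and 472 CPM over both libraries. At the other end Gbp3, Gbp5, Ifit1bl1, Phf11b and Cxcl10 stayed under 10 CPM in both libraries. Iigp1, an immunity-related GTPase, had 0 UMIs among 117636 and 166634 member UMIs, and 0 counts allow up to 0.166 CPM in WT and 0.142 in APP/PS1 (3 counts of all UMIs).

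**Figure D1:**
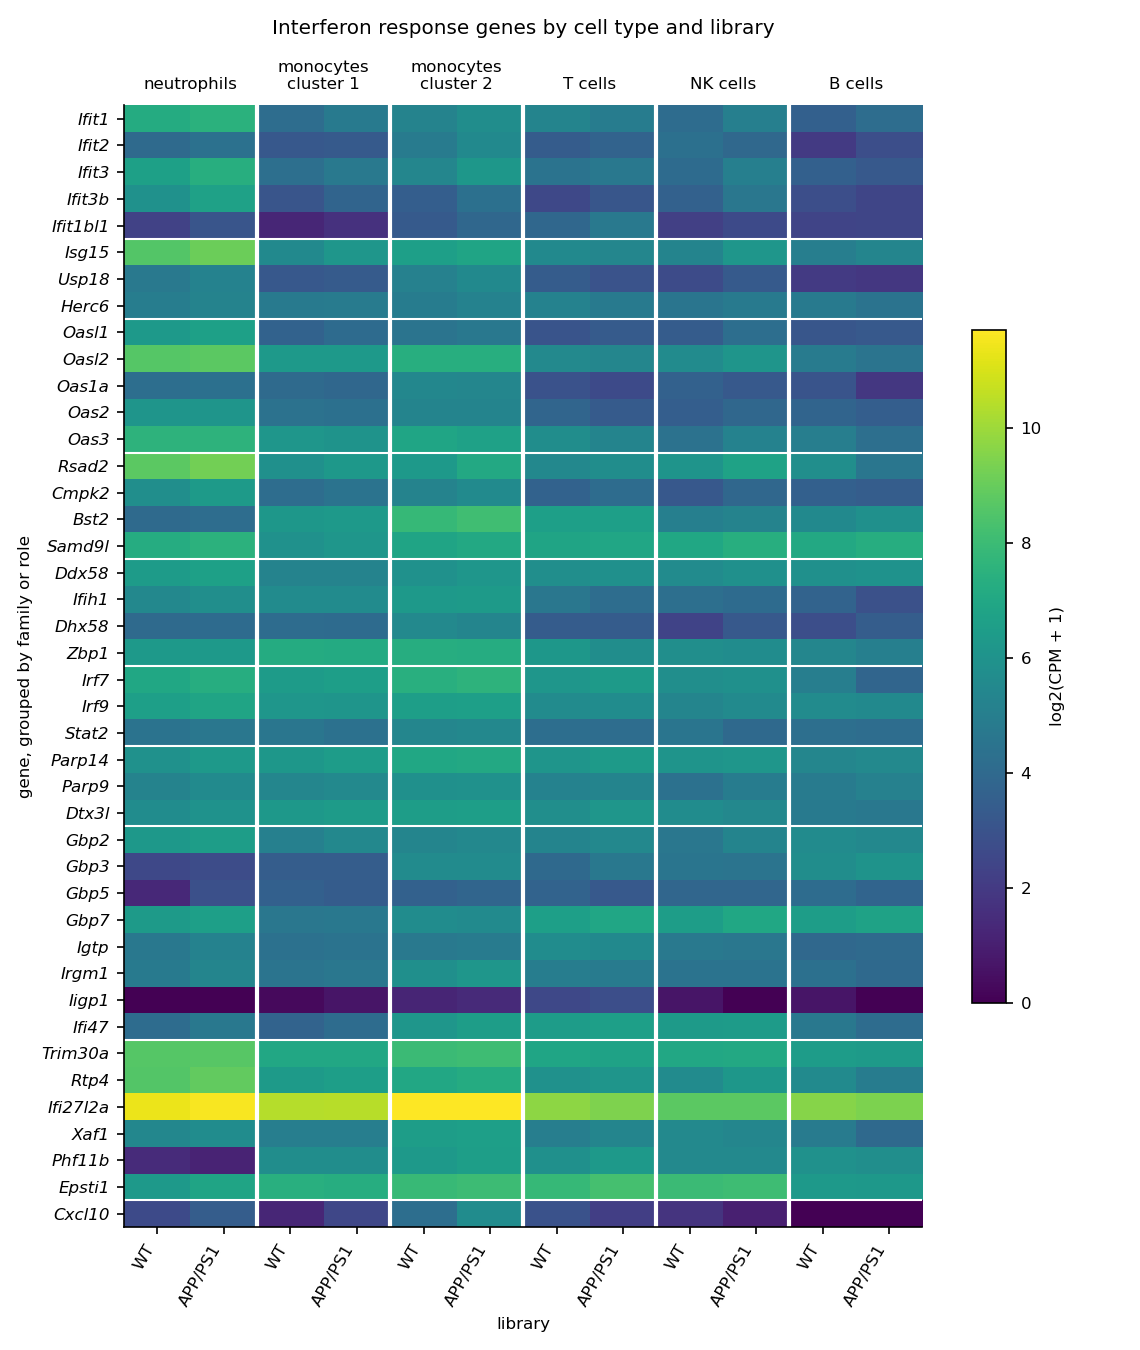
Level of each of the 42 measured members as log2(CPM + 1) (color) in 6 cell groups (columns, WT beside APP/PS1), with genes (rows) ordered by family and white lines between families. Ifi27l2a is the highest row in every column, and the IFIT, OAS and Rsad2 rows are higher in neutrophils than in T, NK and B cells for most genes, while Bst2 and Phf11b are lower in neutrophils than in monocytes and those 3 types.

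Between the libraries, members were on the whole higher in APP/PS1 neutrophils. Of 39 members with at least 200 UMIs over both libraries, 9 were higher in APP/PS1 by over 0.5 on the log2 scale and 0 were lower. Over all 6586 genes with as many UMIs, 3.14% were higher and 2.72% lower by this rule. A ratio above 0 was found for 37 of the 39 members and for 61.4% of all genes. The list was chosen with earlier results of these data known, so these shares are a description. The median log2 ratio was 0.29 for the members and 0.05 for all genes, and the summed members had a ratio of 0.28 (0.27 to 0.29). The 3 members under the minimum were Gbp5, Phf11b and Iigp1. Library sizes by TMM moved the median of all genes by -0.04 and left 36 of 39 members above 0. The count depends on how neutrophils were delimited, and clustering with the members kept among the features left 0 members past 0.5, as described at the end. Of the 9 members, Irgm1 was past 0.5 in 4 of 10 alternatives and Epsti1 in 6 of 10. The others were past it in 9 of 10 or, where fewer gave a value, in 8 of 8.

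The IFIT genes, whose proteins bind viral RNA through tetratricopeptide repeats, had the largest ratio of any family in sum. Each ratio is followed by its interval. Ifit3 had 100.4 CPM in WT against 162 in APP/PS1, a log2 ratio of 0.69 (0.61 to 0.78). Its near copy Ifit3b had 58.7 CPM in WT against 103 in APP/PS1, with a log2 ratio of 0.81 (0.70 to 0.92). These ratios correspond to 1.62-fold and 1.75-fold higher levels in APP/PS1. Ifit1bl1, the scarcest of them, had 3.98 CPM in WT against 7.38 in APP/PS1 and a log2 ratio of 0.89 (0.48 to 1.31). Ifit1 and Ifit2 differed less, with 147 CPM in WT against 175 in APP/PS1 for Ifit1 (0.25, 0.18 to 0.32) and 15.7 CPM in WT against 19.9 in APP/PS1 for Ifit2 (0.34, 0.12 to 0.57). The intervals of Ifit3 and Ifit1 did not overlap, although both lie in the same gene cluster and had similar levels in APP/PS1.

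The ISG15 system showed smaller values of the same sign. Isg15 itself had 381 CPM in WT against 533 in APP/PS1, a log2 ratio of 0.49 (0.44 to 0.53). Usp18, which removes ISG15 from proteins and dampens the receptor, had 25.6 CPM in WT against 36.1 in APP/PS1 and 0.50 (0.33 to 0.67). Herc6, the ligase that attaches ISG15 in mice, had 29.8 CPM in WT against 37.2 in APP/PS1 and 0.32 (0.16 to 0.48). Isg15 and Usp18 (0.497) lay just below the threshold of 0.5, and Irgm1 (0.503), a GTPase, just above it.

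Among the antiviral effectors, Cmpk2, a mitochondrial nucleotide kinase next to Rsad2, had 54.2 CPM in WT against 83 in APP/PS1 and a log2 ratio of 0.61 (0.50 to 0.73). Rsad2 had a log2 ratio of 0.46 (0.42 to 0.50), Samd9l, a restrictor of viral translation, 0.26 (0.19 to 0.33), and Bst2 (tetherin, which holds budding virus at the cell surface) 0.16 (-0.06 to 0.39), with 15.5 CPM in WT against 17.4 in APP/PS1. The interval of Bst2 held 0.

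The OAS genes encode the synthetases that activate RNase L on double-stranded RNA, and most of their ratios were near 0. Oas3 had 192 CPM in WT against 189.6 in APP/PS1, a log2 ratio of -0.02 (-0.08 to 0.05). Oas2 had 67.4 CPM in WT against 68.7 in APP/PS1 (0.03, -0.08 to 0.14) and Oas1a 17.8 CPM in WT against 18.8 in APP/PS1 (0.08, -0.13 to 0.30). All 3 intervals held 0, at depths of 3464 and 4006 UMIs for Oas3. The OAS-like genes were higher, Oasl2 with 387 CPM in WT against 431 in APP/PS1 (0.15, 0.11 to 0.20) and Oasl1, which limits translation of Irf7, with 80.4 CPM in WT against 100 in APP/PS1 (0.31, 0.22 to 0.41). The summed family had 0.12 (0.09 to 0.15), against 0.52 (0.47 to 0.57) for the summed IFIT family.

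The sensors of nucleic acids divided into those with a ratio above 0 and those whose interval held 0. Ifih1 (MDA5, which binds long double-stranded RNA) had 43.8 CPM in WT against 54.8 in APP/PS1, a log2 ratio of 0.32 (0.19 to 0.46). Ddx58 (RIG-I, which binds RNA ends) had 84.8 CPM in WT against 99.8 in APP/PS1 and 0.23 (0.14 to 0.33). Dhx58, their relative without a signalling domain, had 0.05 (-0.18 to 0.28), and Zbp1, which binds Z-form nucleic acid and can trigger cell death, had 77.5 CPM in WT against 77.1 in APP/PS1 and -0.01 (-0.11 to 0.10). The intervals of Dhx58 and Zbp1 held 0.

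The transcription factors of the pathway were higher by less than 0.5. Irf7, the factor that drives most interferon alpha genes, had 125 CPM in WT against 158 in APP/PS1 and a log2 ratio of 0.33 (0.26 to 0.41). Irf9 and Stat2, which work in 1 complex, had 0.20 (0.11 to 0.29) and 0.18 (-0.02 to 0.38). Parp14 and Parp9, ADP-ribosyltransferase family members, had 0.42 (0.31 to 0.53) and 0.34 (0.20 to 0.49), and Dtx3l, the ubiquitin ligase that pairs with Parp9, had 0.28 (0.15 to 0.40).

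Of the GTPases that act on pathogen vacuoles and had at least 200 UMIs, those of the IRG family had the higher ratios. Igtp had 24.6 CPM in WT against 36.1 in APP/PS1 (0.55, 0.38 to 0.72), Irgm1 27.7 CPM in WT against 39.3 in APP/PS1 (0.50, 0.34 to 0.67) and Ifi47 16.8 CPM in WT against 24.9 in APP/PS1 (0.57, 0.36 to 0.78). The guanylate-binding proteins Gbp2, Gbp3 and Gbp7 had log2 ratios of 0.25 (0.14 to 0.35), 0.21 (-0.21 to 0.63) and 0.25 (0.15 to 0.35). Gbp5, which promotes inflammasome assembly, was below the minimum with 28 UMIs in WT and 130 in APP/PS1, and it is named here after its values were seen. Its log2 ratio was 1.99 (1.39 to 2.63). One APP/PS1 cell held 26 of these UMIs, and without the highest cell of each library the ratio was 1.83. In monocytes Gbp5 had 11.2 CPM in WT against 11.6 in APP/PS1 (0.06, -0.18 to 0.29).

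Epsti1 had 79.9 CPM in WT against 115 in APP/PS1, a log2 ratio of 0.53 (0.43 to 0.62). Rtp4, a regulator of the response, had 0.29 (0.25 to 0.33), Xaf1, which antagonizes an inhibitor of apoptosis, 0.25 (0.12 to 0.39), and Ifi27l2a 0.23 (0.21 to 0.25). Trim30a, an inhibitor of NF-kB signalling, had 393 CPM in WT against 410.3 in APP/PS1 and 0.06 (0.02 to 0.11). Cxcl10, the chemokine that attracts activated T and NK cells through CXCR3, had 5.2 CPM in WT against 9.99 in APP/PS1 and 0.94 (0.58 to 1.31). Its 94 WT UMIs came from 25 cells, of which 1 held 44, and its 211 APP/PS1 UMIs from 65 cells, of which 1 held 79. Without these 2 cells the log2 ratio was 1.18. So Cxcl10 in neutrophils rests on few cells. A lower level over all cells of a type and fewer cells with a transcript cannot be told apart from CPM alone.

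**Figure D2:**
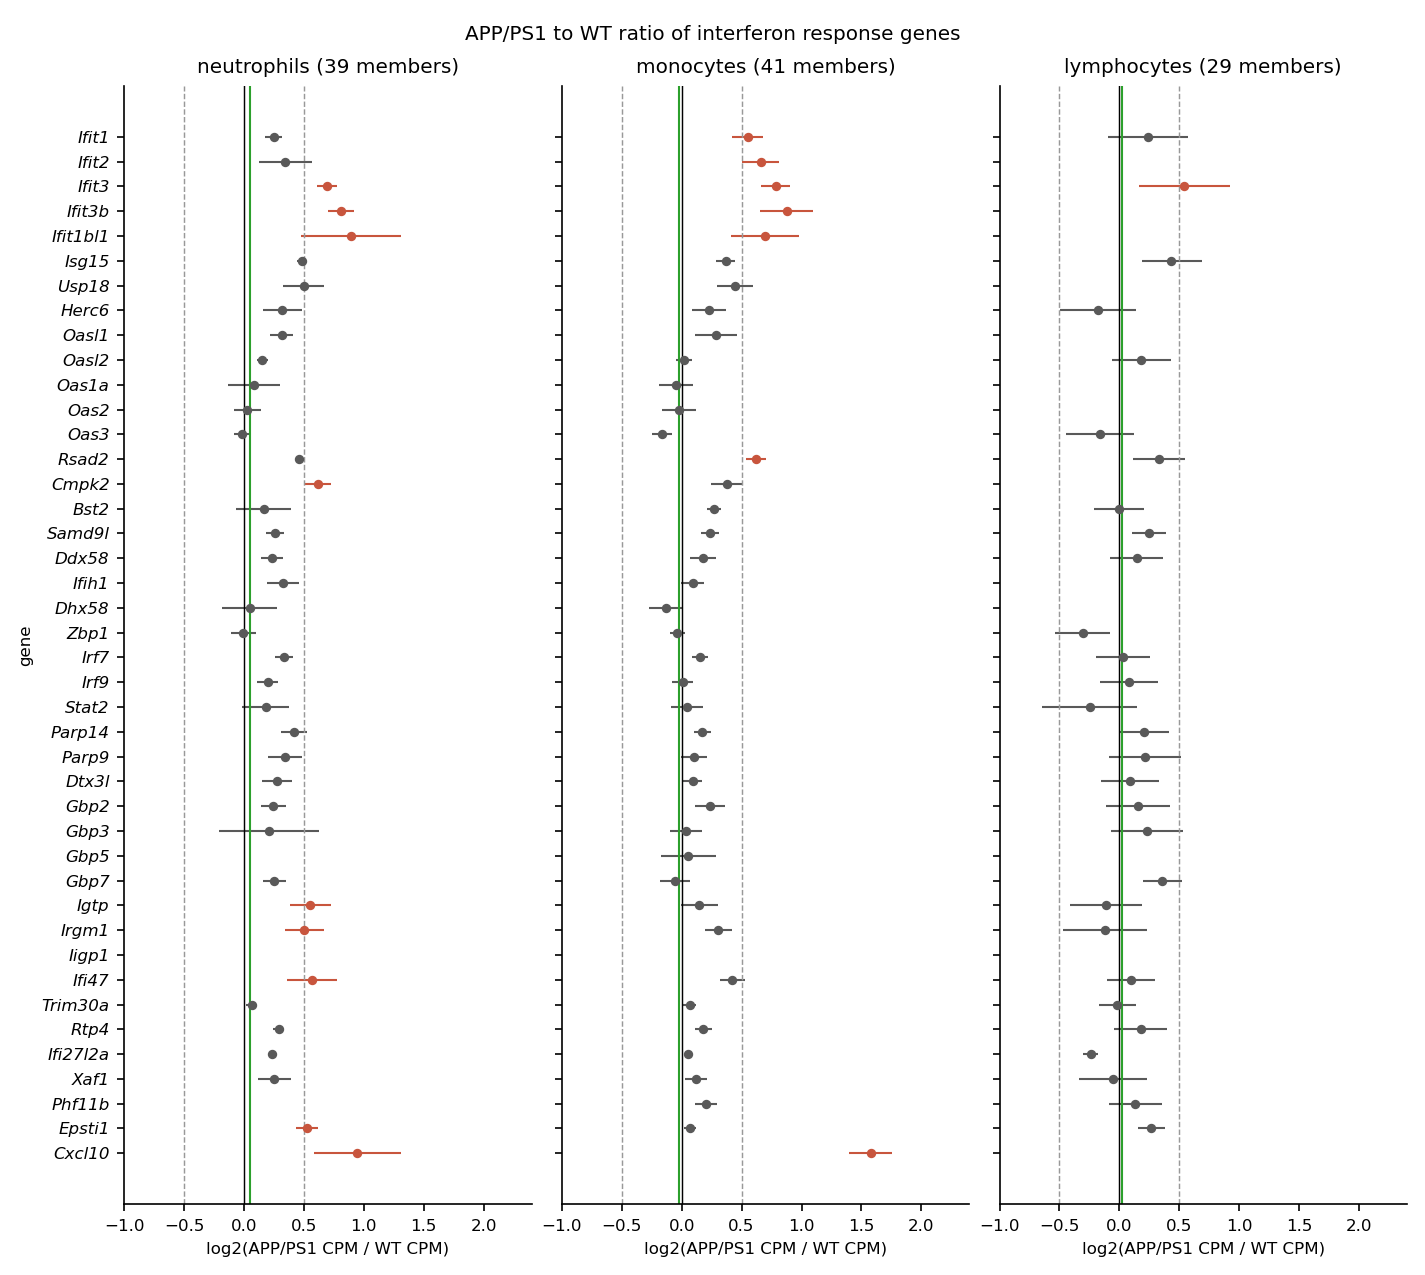
Log2 ratio of APP/PS1 CPM to WT CPM for each member (rows) in neutrophils, monocytes and lymphocytes (panels). Points are ratios with exact 95% counting intervals, shown where a gene had at least 200 UMIs over both libraries, in red past 0.5 in size. Dashed lines mark 0.5 on either side and the green line marks the median of all genes. Cxcl10 is the point farthest to the right in monocytes, with all 5 IFIT genes and Rsad2 past 0.5, and in neutrophils 37 of 39 points lie above 0.

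In monocytes, of 41 members with enough UMIs 7 were higher in APP/PS1 by over 0.5 and 0 lower, where 1.32% of 9145 genes were higher and 1.98% lower. The median was 0.17 for the members and -0.02 for all genes, and 35 members lay above 0 against 43.4% of genes. All 5 IFIT genes were among the 7: Ifit3 had 31.5 CPM in WT against 54.3 in APP/PS1 (0.78, 0.67 to 0.90), Ifit3b 9.03 against 16.6 CPM (0.88, 0.65 to 1.10), Ifit1bl1 5.83 against 9.45 CPM (0.70, 0.41 to 0.98), Ifit2 19.8 against 31.3 CPM (0.66, 0.51 to 0.81) and Ifit1 28.4 against 41.6 CPM (0.55, 0.42 to 0.68). Rsad2 had 71.1 CPM in WT against 109 in APP/PS1 (0.62, 0.54 to 0.70). The IRG genes called in neutrophils were closer to 0, with 0.15 for Igtp, 0.30 for Irgm1 and 0.42 for Ifi47, as was Epsti1 with 0.07. No difference between the cell types was tested. With cells thinned to 1000 UMIs the count was 1 in place of 7. Ifit3 stayed past 0.5 there, Ifit1 and Rsad2 did not, and Ifit2, Ifit3b, Ifit1bl1 and Cxcl10 had under 200 UMIs left and got no value. With no percentile limits on cells Ifit1 (0.36) and Ifit1bl1 (0.47) were not past 0.5. Of the alternatives that gave a value, Ifit1 was past 0.5 in 5 of 9, Ifit1bl1 in 7 of 8 and Rsad2 in 8 of 9. The others of the 7 were past it in all of theirs. The summed OAS family had -0.03 (-0.08 to 0.01) and Oas3 -0.16 (-0.24 to -0.08). The members of highest level in monocytes were Ifi27l2a with 2486 CPM in WT against 2574 in APP/PS1 (0.05, 0.03 to 0.07), Epsti1 with 208 against 219 CPM and Trim30a with 201 against 210.5 CPM. Bst2 had 162 against 196 CPM (0.27, 0.21 to 0.33), Isg15 75.2 against 96.9 CPM (0.37, 0.28 to 0.45) and Irf7 134 against 149 CPM (0.15, 0.09 to 0.22).

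Cxcl10 had the largest ratio of any member in monocytes, with 10.9 CPM in WT against 32.5 in APP/PS1, a log2 ratio of 1.58 (1.39 to 1.76). Its UMIs came from 105 of 5368 WT monocytes (1.96%) and 100 of 3607 APP/PS1 monocytes (2.77%), at 3.6 and 7.26 UMIs per cell that had any. Without the highest cell of each library the log2 ratio was 1.54. Nearly all of these UMIs were in cluster 2, led by Fn1, F13a1 and Ccr2, with 358 in WT and 686 in APP/PS1, and few in cluster 1, led by Cd300e.

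Both monocyte clusters were also read on their own. In cluster 2, 7 of 41 members were past 0.5, beside 1.46% of all genes, and the summed IFIT family had 0.72 (0.64 to 0.80). In cluster 1, 3 of 38 were, beside 1.27% of all genes, namely Ifit1 (0.62, 0.35 to 0.88), Ifit3b (0.76, 0.36 to 1.16) and Isg15 (0.60, 0.44 to 0.76), with 0.51 (0.36 to 0.66) for the summed IFIT family. The level of the summed members was higher in cluster 2, at 6409 CPM in WT against 6907 in APP/PS1, than in cluster 1, at 3106 CPM in WT against 3266 in APP/PS1. Cluster 2 also held more neutrophil markers in WT (12219.9 CPM in sum) than in APP/PS1 (9031 CPM), and the part of this in the ratios was not tested.

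In lymphocytes, which had the fewest UMIs of these types, 29 members reached 200 UMIs. Ifit3 alone was past 0.5, with 16.4 CPM in WT against 23.8 in APP/PS1 (0.54, 0.16 to 0.93), from 89 and 167 UMIs, and 0 were lower. Over all genes 1.13% were higher and 1.94% lower. The median member ratio was 0.13 and that of all genes 0.02. Ifit3 was not past 0.5 with equal weight per cell, with library sizes that leave out abundant gene classes or with no percentile limits on cells. With high doublet scores removed, with a marker gate per cell and with thinned cells it fell under 200 UMIs and got no value. Ifit3 was higher in neutrophils than in lymphocytes in both libraries. S100a9 stood at 6.70% to 10.3% of its neutrophil level in WT T, NK and B cells and at 3.94% to 10.9% in APP/PS1. The part of RNA carried over from neutrophils in the Ifit3 ratio was not tested. NK cells were 425 of 1156 WT and 763 of 1613 APP/PS1 lymphocytes, so the mix of types also moved, and its part in these ratios was not tested. Ifi27l2a was lower in APP/PS1 lymphocytes, with 688 CPM in WT against 583 in APP/PS1 (-0.24, -0.30 to -0.18), and Zbp1 had 56.9 CPM in WT against 46.1 in APP/PS1 (-0.30, -0.53 to -0.08).

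Among the lymphocytes, NK cells were the type with members past the threshold. Of 17 members with enough UMIs there, 3 were higher and 0 lower, beside 1.81% and 0.978% of all genes. They were Isg15 with 37.8 CPM in WT against 71.1 in APP/PS1 (0.91, 0.50 to 1.34), Rsad2 with 65.9 against 107 CPM (0.70, 0.38 to 1.02) and Rtp4 with 48.5 against 71.8 CPM (0.56, 0.19 to 0.95). RNA carried over from neutrophils at the rate of S100a9, as described further on, would give 39.3 and 58 CPM for Isg15 in WT and APP/PS1 NK cells, 44.4 and 64.5 CPM for Rsad2 and 39.8 and 51.3 CPM for Rtp4. Isg15 in WT NK cells was at or below that level, and the part of such RNA in the 3 ratios was not tested. In T cells 0 of 17 members were higher and 0 lower (2.92% and 2.82% of all genes), and the summed members had 0.01 (-0.04 to 0.06). B cells gave 0 higher and 0 lower of 7 (1.72% and 4.97% of all genes), with -0.11 (-0.18 to -0.04) for the sum. S100a9 had 6676 CPM in WT against 3367 in APP/PS1 in B cells, and its part in the B cell sum was not tested.

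The cells of cluster 3, with neutrophil and platelet markers, were counted apart from the neutrophils and gave the same direction. There 10 of 36 members were past 0.5, beside 2.42% of all genes, and the median was 0.32. Ifit3 had 87.3 CPM in WT against 162 in APP/PS1 (0.89, 0.71 to 1.07), Rsad2 348 against 588 CPM (0.76, 0.67 to 0.85) and Ifi47 13.6 against 26.2 CPM (0.94, 0.49 to 1.41). These cells come from the same animals and libraries, so they are no replicate.

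A small part of the neutrophils, cluster 9, was led by the granule genes Camp, Ltf and Ngp and held 92 WT and 178 APP/PS1 cells. There the sum had the opposite direction. The summed members had 3176 CPM in WT against 2727 in APP/PS1 (-0.22, -0.30 to -0.14), and Rsad2 had 188 against 98.2 CPM (-0.94, -1.32 to -0.55), or -0.68 without the highest cell of each library. Ifi27l2a did not share this direction, with 696 against 878 CPM (0.33, 0.17 to 0.50), nor did Cmpk2 (0.49, -0.05 to 1.07). Plasma cell markers summed to 47 CPM in WT and 763 in APP/PS1 in this cluster and erythroid markers to 4286 and 533, and their part in these ratios was not tested. One WT cell held 57 of the 166 IFIT UMIs, and 1 WT cell held all 44 Cxcl10 UMIs of this cluster in WT. In cluster 0, the remaining neutrophils, Cxcl10 had 2.86 CPM in WT against 10.4 in APP/PS1 (1.87, 1.42 to 2.34). This leaves out the WT cell with 44 Cxcl10 UMIs but keeps the highest APP/PS1 cell, so the highest cell is missing from WT only. The ratio without the highest cell of each library, given above for all neutrophils, was smaller. Isg15, Usp18 and Rsad2 had 0.52, 0.55 and 0.51 in cluster 0.

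Set against neutrophils within a library, some members were higher in neutrophils and others in the other types. Isg15 was higher in neutrophils than in monocytes by 5.07-fold in WT and 5.5-fold in APP/PS1, Rsad2 by 6.05-fold in WT and 5.43-fold in APP/PS1, Ifit1 by 5.17-fold in WT and 4.2-fold in APP/PS1 and Oasl2 by 3.06-fold in WT and 3.36-fold in APP/PS1. In the opposite direction Bst2 was higher in monocytes by 10.4-fold in WT and 11.2-fold in APP/PS1, Gbp3 by 7.01-fold in WT and 6.22-fold in APP/PS1 and Epsti1 by 2.61-fold in WT and 1.9-fold in APP/PS1. Of 39 members with at least 200 UMIs in each of both types, 11 were higher in monocytes by over 0.5 log2 in both libraries and 16 lower, where 45.7% of genes with as many UMIs were higher and 18.6% lower. Phf11b, under this minimum in neutrophils, was higher in monocytes by 39.3-fold in WT and 60.7-fold in APP/PS1. Irf7 was nearly level, with log2 ratios of 0.10 in WT and -0.09 in APP/PS1. Ifih1 was 0.59 and 0.35.

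Of 28 members with at least 200 UMIs in neutrophils and in lymphocytes, 4 were higher and 13 lower in lymphocytes in both libraries, where 49.1% and 19.5% of such genes were. Isg15 was higher in neutrophils by 9.76-fold in WT and 10.1-fold in APP/PS1, Oasl2 by 9.35-fold in WT and 9.16-fold in APP/PS1 and Ifi27l2a by 3.77-fold in WT and 5.22-fold in APP/PS1. Samd9l differed little, with log2 ratios of -0.31 and -0.32. Ifi47, Gbp3, Bst2 and Epsti1 were the 4 higher ones, Ifi47 by 3.94-fold in WT and 2.84-fold in APP/PS1. Gbp5, under the minimum in neutrophils, was higher in lymphocytes by 9.04-fold in WT and 1.9-fold in APP/PS1, the gap being smaller in APP/PS1, where neutrophils had more of it. The median gene was 0.46 log2 higher in monocytes and 0.57 higher in lymphocytes than in neutrophils. TMM library sizes moved these medians by -0.69 and -0.88. With them 3 of 39 members were higher and 22 lower in monocytes, and 3 of 28 higher and 24 lower in lymphocytes. The median of all genes then stood at -0.23 and -0.32. The share of all genes past the threshold was not computed with TMM, so these counts have no background beside them. Bst2, Gbp3 and Ifi47 were the 3 higher ones in both types under TMM. Epsti1, Cxcl10 and Oas1a are among those no longer higher in monocytes by the rule with TMM.

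**Figure D3:**
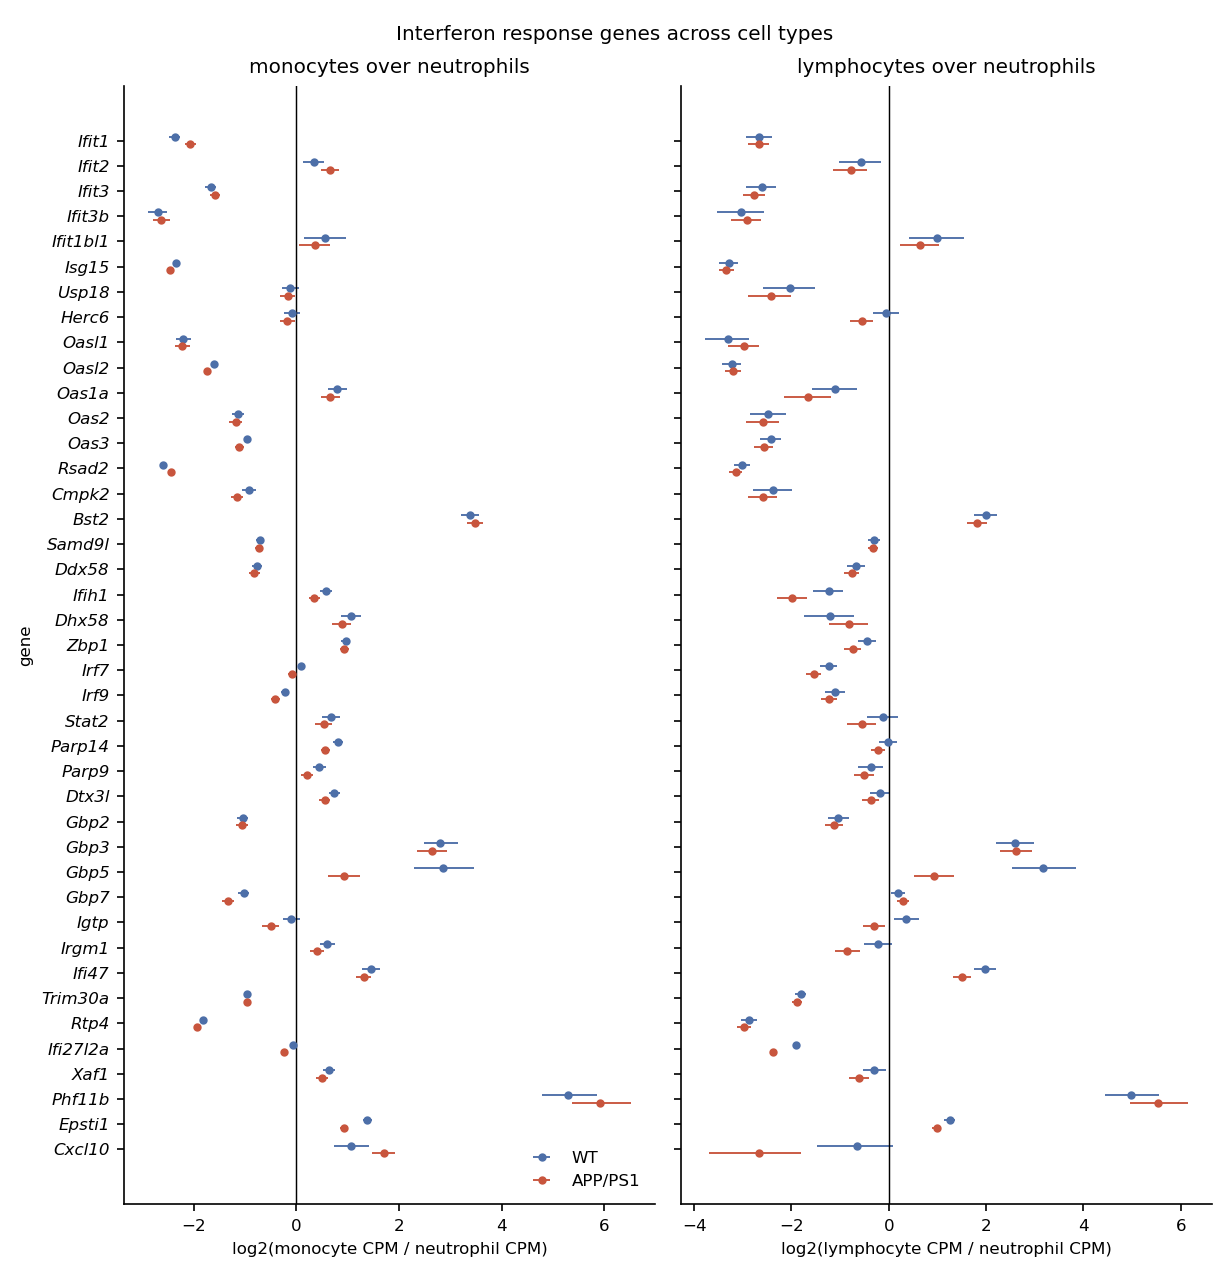
Log2 ratio of monocyte CPM (left) and lymphocyte CPM (right) to neutrophil CPM for 41 members (rows, Iigp1 left out for 0 neutrophil UMIs), WT in blue and APP/PS1 in red, with exact 95% counting intervals. Isg15, Rsad2, Oasl1 and most IFIT genes lie left of 0 in both panels, and Phf11b, Bst2 and Gbp3 lie right of 0.

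Across the lymphocyte types the levels followed another order than in neutrophils. Ifi27l2a led in all, with 832 CPM in WT against 693 in APP/PS1 in T cells, 435 against 432 CPM in NK cells and 760.3 against 683 CPM in B cells. Epsti1 was next in T cells (229 against 304 CPM) and NK cells (248 against 266 CPM), and Samd9l next in B cells (132 against 155 CPM), followed by Gbp7 (90.9 against 107 CPM). Samd9l was the third by the mean of both libraries in T cells (114 against 119 CPM) and NK cells (123 against 159.8 CPM), though not in each library. Irf7 had 69.7 CPM in WT against 82.3 in APP/PS1 in T cells, 54.5 against 58.3 CPM in NK cells and 30.9 against 13.1 CPM in B cells. Bst2 was highest in T cells among them (97.6 against 95.8 CPM). Gbp2 lay between 24 and 49.1 CPM in all 3 types.

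Transcripts of neutrophils were also counted in the other cells. S100a9 in monocytes was 7.79% of its neutrophil level in WT and 7.33% in APP/PS1. If neutrophil RNA were carried over at that rate, it would give 10.0% and 10.6% of the monocytes' member UMIs. The same figures were 32.4% and 35.9% in NK cells, 16.2% and 24.7% in T cells, and 47% and 68.6% in erythroid cells. All 42 members were above that level in monocytes of both libraries. Isg15 was at or below it in WT NK cells and in APP/PS1 T cells, and Ifit3b in APP/PS1 T cells, so these levels cannot be told apart from background. Monocytes express S100a9 too, which makes the figure for them an upper one.

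Per cell, the members were unevenly spread. With each cell thinned to 1000 UMIs, 6321 WT and 7024 APP/PS1 neutrophils remained, 2 APP/PS1 cells being too shallow. A WT neutrophil had a mean of 6.73 ± 6.61 member UMIs (SD over cells) and an APP/PS1 neutrophil 8.26 ± 8.26, with medians of 5 and 6. More than 15 member UMIs, the 90th percentile of WT, were found in 8.72% of WT cells (95% interval 8.03 to 9.44%) and 14.2% of APP/PS1 cells (13.4 to 15%). Cells with no member UMI made up 5.38% and 5.13%. Cells at or below 15 had means of 5.21 and 5.65, and cells above it 22.6 and 24. The cells above held 29.3% of member UMIs in WT and 41.3% in APP/PS1. The highest single cells had 81 and 101. In monocytes the share above the WT 90th percentile of 9 was 8.89% in WT and 11.6% in APP/PS1. The same share, each type against its own WT percentile, was 8.43% and 6.08% in T cells, 6.82% and 8.79% in NK cells, and 6.58% and 4.56% in B cells.

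**Figure D4:**
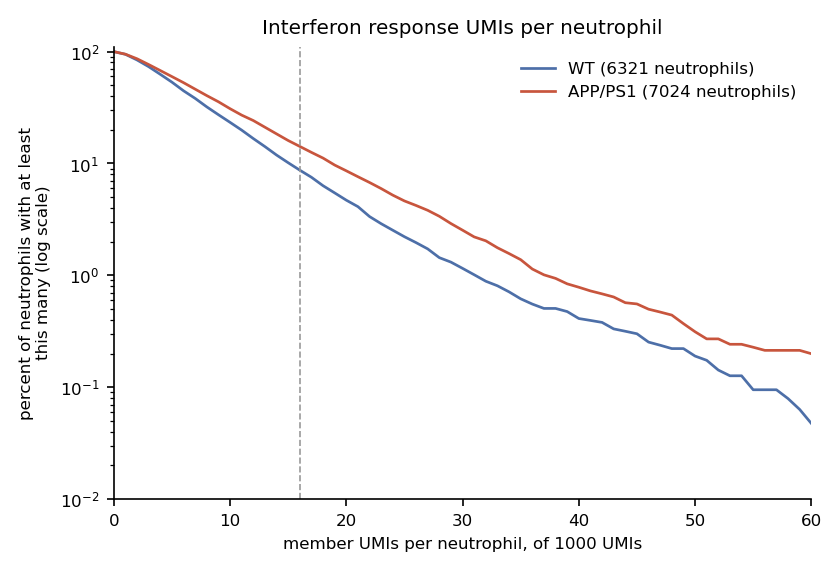
Percent of neutrophils (y axis, log scale) with at least the given number of member UMIs among 1000 UMIs per cell (x axis), for WT (blue) and APP/PS1 (red). The dashed line at 16 marks the first value above the WT 90th percentile of 15, where the curves stand at 8.72% and 14.2%, and the curves lie close together at low values.

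Ifi27l2a was found in 65.1% of WT and 65.8% of APP/PS1 cells, although its CPM was higher in APP/PS1. Isg15 was found in 24.8% (23.7 to 25.8%) and 32.7% (31.6 to 33.8%), and Ifit3 in 6.82% and 10.3%. In erythroid cells Isg15 was found in 16% and 13.1%, Ifit3 in 2.72% and 5.84%, and Ifi27l2a in 36.6% and 39.4% of cells of the same depth. Oas3, whose interval held 0, was found in 16.7% of WT and 16% of APP/PS1 neutrophils.

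The members were found together in the same neutrophils. For each member, the 10% of thinned cells with most UMIs of the other members were compared with the remaining cells, in each library (632 and 702 cells). Of 39 members, 37 were more than 1 log2 unit higher in these cells in both libraries, where 0.718% of 6547 other genes were. The median log2 ratio was 1.90 for the members and -0.0031 for the other genes. Ifit2 stood highest with 0.114 against 0.00457 UMIs per cell in WT and 0.141 against 0.0068 in APP/PS1, log2 ratios of 4.62 and 4.36. Ifit3 had 0.579 against 0.0446 UMIs per cell in WT and 0.913 against 0.0862 in APP/PS1 (3.70 and 3.40) and Ifit1 0.756 against 0.0933 UMIs per cell in WT and 0.95 against 0.0995 in APP/PS1 (3.02 and 3.26). Rsad2 had log2 ratios of 2.45 and 2.25, Isg15 2.07 and 2.06 and Irf7 1.83 and 1.92.

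At the low end were Irf9, with 0.191 against 0.0946 UMIs per cell in WT and 0.181 against 0.105 in APP/PS1 (1.02 and 0.79), and Ifi27l2a, with 4.78 against 2.45 UMIs per cell in WT and 5.98 against 2.9 in APP/PS1 (0.96 and 1.05). These were the members that did not exceed 1 in both libraries, and Samd9l (1.03 and 1.18), Trim30a (1.06 and 1.16) and Rtp4 (1.12 and 1.19) came next. Oas3 and Zbp1, whose ratios between the libraries had intervals that held 0, were still concentrated in these cells. Oas3 had 1.19 and 1.60 and Zbp1 1.97 and 2.07. Members with the response element core in their promoter window had a median of 2.06 (19 genes) and those without it 1.94 (12 genes), values whose ranges overlapped. Other genes high in the same cells included Ifi208 (3.48 and 2.69), Ube2l6, the conjugating enzyme for ISG15 (2.23 and 2.50), and Slfn5 (2.44 and 2.09), named after their values were seen.

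**Figure D5:**
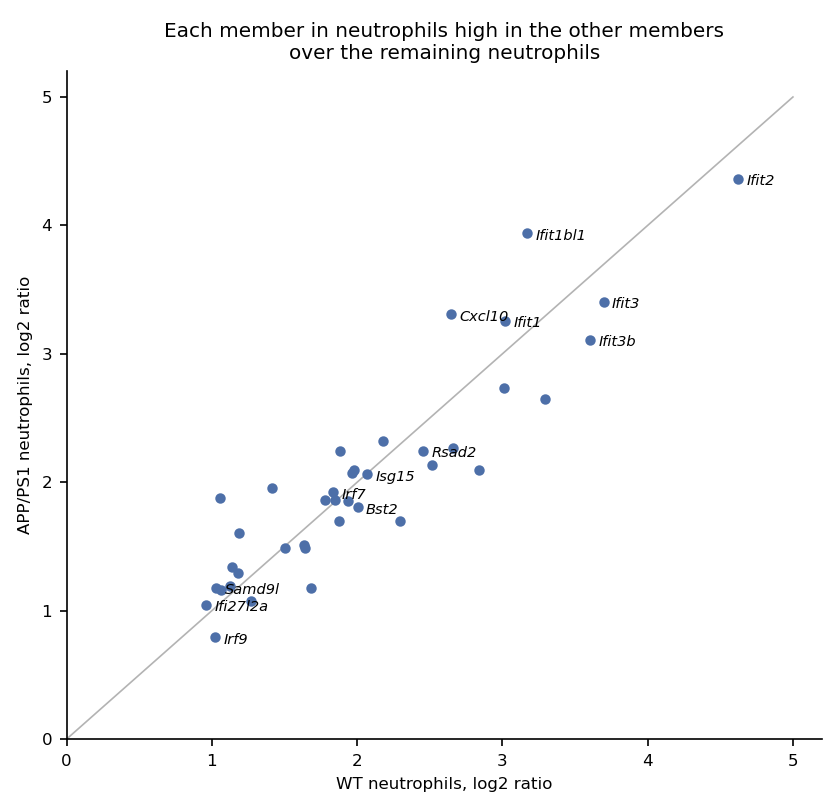
Log2 ratio of each member between the 10% of neutrophils with most UMIs of the other members and the remaining neutrophils, WT (x axis) against APP/PS1 (y axis), for 39 members, with the line of equal values. Ifit2 is farthest out and Irf9 and Ifi27l2a are lowest, and all points lie above 0 in both libraries.

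The same comparison was made within both monocyte clusters. In cluster 2, 22 of 41 members exceeded a log2 ratio of 1 in both libraries, with a median of 1.51, beside 1.02% of 8177 other genes, whose median was -0.03. In cluster 1 there were 15 of 38, with a median of 1.07, beside 1.08% of 7420 other genes, whose median was -0.03. Cxcl10 in cluster 2 had log2 ratios of 3.29 and 5.07 and Ifit1bl1 3.42 and 5.14, while Irf9 had 0.14 and 0.04. In NK cells 6 of 17 members exceeded 1 in both libraries, with a median of 1.13, beside 169 of 3358 other genes. Rsad2, the highest of these members, had 4.68 and 4.66 there. The part of RNA carried over from neutrophils in these values was not tested.

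Of 69 listed pathway genes that are no members, 38 had enough UMIs in neutrophils, and 0 were higher and 0 lower by over 0.5, where 3.14% and 2.72% of all genes were, with a median of 0.09. The 17 further induced genes among them had a median of 0.13. In monocytes 1 of 46 was higher, Trim30c with 5.86 CPM in WT against 8.73 in APP/PS1 (0.58, 0.29 to 0.87), and 0 lower, where 1.32% and 1.98% of all genes were. In lymphocytes 1 was higher (Ifng) and 1 lower (Ifngr2) of 39, where 1.13% and 1.94% of all genes were. In T cells 2 were higher and 3 lower of 22, beside 2.92% and 2.82% of all genes. Higher were Ifng and Il10rb, a receptor subunit of interleukin 10 and interferon lambda (48.8 against 70.5 CPM, 0.53 (0.17 to 0.90)). Lower were Ifngr2 (64.5 against 41.4 CPM, -0.64 (-1.03 to -0.25)), Irf8, a transcription factor of myeloid and B cells (123 against 44.4 CPM, -1.47 (-1.82 to -1.14)), and Socs3, a feedback inhibitor of cytokine receptors (95.7 against 53.5 CPM, -0.84 (-1.17 to -0.51)). B cell markers in the T cells summed to 133 CPM in WT against 121 in APP/PS1, and their part in these ratios was not tested. NK cells gave 0 in either direction of 20 genes, beside 1.81% and 0.978% of all genes. B cells gave 0 in either direction of 13, beside 1.72% and 4.97%.

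Transcripts of the type I ligands were scarce in these cells. Ifnb1 had 0 and 2 UMIs in monocytes and 0 in neutrophils, and the alpha genes together had 0 in both types except 1 UMI of Ifnab in WT neutrophils. Ifnk, a type I interferon best known from skin, had 42 UMIs in WT and 9 in APP/PS1 monocytes. Ifng, the type II ligand, had 76.6 CPM in WT against 115 in APP/PS1 in lymphocytes (0.59, 0.41 to 0.76), most of it in NK cells with 317 and 639 UMIs, where its log2 ratio was 0.22 (0.03 to 0.42). In T cells it had 46.9 CPM in WT against 71.4 in APP/PS1 (0.61, 0.24 to 0.98).

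The receptor genes in neutrophils differed by subunit. Ifnar1 and Ifnar2, the type I receptor, had log2 ratios of 0.04 (-0.09 to 0.17) and 0.01 (-0.07 to 0.08), with 151 CPM in WT against 152 in APP/PS1 for Ifnar2. Of the type II receptor, Ifngr1 was lower with 183 CPM in WT against 148 in APP/PS1 (-0.30, -0.37 to -0.23) and Ifngr2 higher with 116 CPM in WT against 163 in APP/PS1 (0.49, 0.41 to 0.57). In lymphocytes Ifngr2 was lower, with 47 CPM in WT against 32.4 in APP/PS1 (-0.54, -0.80 to -0.27). Socs1, a feedback inhibitor of the kinases named after its values were seen, had 10.6 CPM in WT against 13.3 in APP/PS1 in neutrophils (0.33, 0.06 to 0.60).

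The results also depended on how neutrophils were delimited. With the members kept among the features, clustering set apart 527 of 6321 WT neutrophils (8.34%, 7.67 to 9.05%) and 1049 of 7026 APP/PS1 neutrophils (14.9%, 14.1 to 15.8%), in a cluster led by Ifit3b, Ifit3, Ifit1 and Rsad2 that was also led by the platelet genes Clec1b and Itga2b. In the neutrophils of that clustering (6116 WT and 6560 APP/PS1 cells), which also took in cells typed otherwise before, 0 members were past 0.5 and the median ratio was 0.09. That cluster was drawn with the members themselves, so its size is a description.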

How the data were processed

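Blood leukocytes of 2 genotypes were profiled by single-cell RNA sequencing, with 1 library of 3 pooled mice per genotype. Per the labels and the study's methods, the authors aligned the reads to mm10 with Cell Ranger 5.0.0 and deposited raw UMI counts per gene and cell, 1 matrix per library. These counts were used as deposited.

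Cells between the 5th and 95th percentiles of UMIs and of detected genes in their library and with at most 10% mitochondrial UMIs were kept. Genes in at least 3 cells, log-normalization, 2000 variable features without the members and pathway genes, 15 principal components and a resolution of 0.2 gave the clusters (Seurat 5.3.0, R 4.3.3). Clusters were named from marker lists, and a first clustering had been seen when the naming rule was set. Doublets were not removed in the reported values. An alternative removed the top 8% of doublet scores in each library (Scrublet in scanpy 1.11.5), because its own threshold called almost no cell in 1 library. UMIs were summed per library and type in Python 3.11.15 (pandas 2.3.3, scipy 1.17.1). Levels have exact Poisson intervals, ratios exact conditional intervals and shares exact binomial intervals. A member counted as higher or lower past 0.5 log2 with at least 200 UMIs. Per-cell values used 1000 UMIs per cell, and ratios between high and low cells a pseudocount of 0.5 UMIs. TMM library sizes came from edgeR 4.0.16, with no test. The ratio, its interval, the rule for higher and lower and the thinning were tested on simulated data. The simulated counts were independent Poisson counts, so UMIs gathered in single cells were not covered. Clustering, cell naming and the comparison of high and low cells were not tested in this way.

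Members and lists were chosen with earlier results of these data known. Full values were given for members past the threshold, the 3 of highest level in each type, and Ifit3, Isg15, Irf7, Oasl2, Rsad2, Ifih1, Bst2 and Gbp2. Other members were given by role. Pathway genes were named where past the threshold or as ligand or receptor, Gbp5, Ifi208, Ube2l6, Slfn5 and Socs1 after their values were seen, and 1 further pathway gene is not reported here. Promoters shown are those of the members with the highest and lowest ratio between high and low cells. Alternatives changed the cell filter, doublets, cell typing, clustering features, library size, cell weights, depth, minimum count and threshold.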

Additional observations from a re-analysis of the deposited data

Results flagged for a closer look

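Ifi27l2a, the most abundant member, had ratios of opposite sign in different cell types. Its log2 ratio of APP/PS1 to WT was 0.23 in neutrophils and 0.050 in monocytes but -0.24 in lymphocytes. The difference between the cell types was not tested, since each ratio compares 1 library with 1 library.

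The cells left out by the filters, which enter no comparison of the report, also carried the members. Their summed members stood at 5247 CPM in WT against 6350 in APP/PS1, a log2 ratio of 0.28. These cells were not divided by type. Among kept cells, monocytes were 36.9% in WT and 23.7% in APP/PS1 and neutrophils 43.4% and 46.2%. The part of the cell mix in this ratio was not tested.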

How the results depend on the processing

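No paired analysis was possible because each genotype had 1 library and no result came from a test. Under the alternatives, 115 values of the main results stayed within their interval (counts within 1.5 times) and 52 moved. For the medians this interval was a spread over members, and for the others it covered counting error. For ratios between cell types it ran from the lowest to the highest bound of both libraries. The counts of lower members were 0 in every setting and are among the 115. The cause of the moves was not tested.

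Keeping the members among the clustering features moved the neutrophil values. The count of higher members went from 9 to 0, the median ratio from 0.29 to 0.086 and the ratio of the summed members from 0.28 to 0.10. The share of APP/PS1 cells above the WT 90th percentile went from 14.2% to 10.9%, beside 8.72% and 8.47% of WT cells. The median ratio between high and low cells went from 1.90 to 0.91. The summed members in monocytes to neutrophils went from -0.45 to -0.10 and in lymphocytes to neutrophils from -1.61 to -1.27. A threshold of 1 left 0 of 39 members higher in neutrophils, 1 of 41 in monocytes and 0 of 29 in lymphocytes. Here and under the other alternatives, the share of all genes past the threshold was not computed. The counts of these alternatives therefore have no background beside them.

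The ratio of the summed members in neutrophils was 0.29 with no percentile limits, 0.29 with a marker gate per cell, 0.24 with TMM, 0.24 without abundant classes, 0.30 as a mean over cells, 0.30 with thinned cells and 0.31 without Ifi27l2a. In monocytes (0.12) it was 0.14 with percentiles over both libraries, 0.082 with no percentile limits, 0.093 with the gate, 0.13 with TMM, 0.10 without abundant classes, 0.14 as a mean over cells, 0.14 with thinned cells and 0.18 without Ifi27l2a, and thinned cells left 1 of 7 members in the count, with 2 at or under 0.5 and 4 under 200 UMIs. In lymphocytes (0.04) it was 0.11 with percentiles over both libraries, 0.13 with the gate, -0.016 without abundant classes, -0.0012 with thinned cells and 0.14 without Ifi27l2a. The lymphocyte count of 1 became 2 with percentiles over both libraries, 0 without doublets, without abundant classes, as a mean over cells and with thinned cells, and 4 with a minimum of 50 UMIs. Ifit3 had under 200 UMIs there without doublets, with the gate (where Gbp7 at 0.52 was the 1 counted) and with thinned cells, and a ratio of 0.26 as a mean over cells, 0.49 without abundant classes and 0.47 with no percentile limits.

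Monocytes to neutrophils was -1.14 with TMM, -0.65 as a mean over cells, -0.66 with thinned cells and -0.68 without the most abundant member. Lymphocytes to neutrophils was -1.97 without doublets, -1.91 with the gate, -2.50 with TMM, -1.79 as a mean over cells, -1.79 with thinned cells and -1.36 without the most abundant member. The share of APP/PS1 neutrophils was 16% with percentiles over both libraries (9.67% of WT) and 15.7% with no percentile limits (9.69% of WT). It was 15.3% with cluster 3 added (chosen after seeing the data, 9.84% of WT). At 2000 UMIs per cell it was 16.4% (9.93% of WT), and above the 99th percentile 2.04% (0.886% of WT). The cut-off is a whole number of UMIs, so the WT share moved as well. Depth limited the lymphocytes most, where 29 members reached 200 UMIs.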
